A study of Mus musculus with 6 samples.

Results

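The genes examined here carry calcium and magnesium through the distal part of the mouse kidney tubule, together with the sodium chloride cotransporter that marks its first segment and 2 genes that control it. They were 10 genes named by symbol: Trpv5, Calb1, S100g, Pvalb, Slc8a1, Trpm6, Cnnm2, Slc12a3, Klhl3 and Wnk1. They were found by their GENCODE M21 symbols among the 55450 genes of the count table, and all 10 had enough counts to enter the fit with 16592 genes in total. The set was chosen by function and on the measured differences between day 21 and day 0 in these same libraries, among which the near loss of Pvalb stood out, so the differences of the 10 genes are given as descriptions, with no test. Total RNA of kidney was sequenced from wild type male C57BL/6J mice, bought at an age of 7 weeks and kept for 1 week before the experiment. The day 0 group, labelled control with the treatment 20%PEG, had 3 libraries. The day 21 group also had 3 libraries, from mice given adenine at 0.16 g/kg and potassium oxonate at 2.4 g/kg by gavage once a day. The sources used here do not say whether the day 21 mice also received PEG, and mice sampled 21 days later would be older, so that vehicle and age cannot be told apart from the treatment. Potassium oxonate blocks uricase and adenine feeds purine breakdown, and adenine is itself used on its own as a kidney-damaging agent, so that the effects of raised uric acid and of adenine cannot be told apart in this model. The libraries are numbered as replicates with no word on pooling, and each is called a mouse here. The p-values cover the spread between these libraries only.

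Most filtered calcium and magnesium is recovered before the distal tubule, and the distal convoluted and connecting tubules set the final amount by a route through the cell. Calcium enters from the urine through the channel TRPV5, is carried across the cell by calbindin proteins, and leaves to the blood through the sodium-calcium exchanger and the plasma membrane calcium pump. Magnesium enters through TRPM6 in the distal convoluted tubule, the same segment in which the thiazide-sensitive cotransporter NCC, the product of Slc12a3, takes up sodium chloride. Parathyroid hormone, vitamin D and klotho act on the calcium route, and the WNK kinases act on NCC.

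Library totals ran from 10963849 to 14333311 counts. Levels are given per mouse, in the order of replicates 1, 2 and 3, as CPM, counts set relative to library sizes that were scaled by the trimmed mean of M values (TMM). Fold changes are log2 values of day 21 over day 0 from edgeR with their standard error (SE). A gene is said to be called when its Benjamini-Hochberg adjusted p in edgeR's quasi-likelihood test over all 16592 genes was under 0.05 and its fold change was over 1.5. Scaling by library size alone in place of TMM moved the median of all genes from 0.03 to 0.42, and its values are given where it ended or made a call or moved a value of the 10 genes by over 1.5 times. By the call rule 35.1% of all genes were called, 19.6% higher and 15.5% lower on day 21. Kidney markers were present in all 6 libraries. The summed level of 6 proximal tubule markers was 9267 to 10110 CPM on day 0 and 1784 to 2213 CPM on day 21, with 6 of 6 called lower. For 5 thick ascending limb markers the sum was 5534 to 6890 CPM against 3670 to 4104 CPM, with 3 lower and 1 higher. The sum of 6 principal cell markers was 495.4 to 632.9 CPM against 311.4 to 360.3 CPM, with 2 lower. That of 5 intercalated cell markers was 209.5 to 345.5 CPM against 123.6 to 157.5 CPM, with 3 lower. Podocyte markers (3 genes, 3 lower) summed to 331.6 to 532.7 CPM against 231.3 to 275.3 CPM. Endothelium markers (3 genes, 1 lower) summed to 238.4 to 295.5 CPM against 122.9 to 204.3 CPM. For 4 fibroblast markers it was 113.8 to 185.4 CPM against 771.3 to 1476 CPM, and for 5 leukocyte markers 116.3 to 136.2 CPM against 483.6 to 665.9 CPM, with every gene of these 2 lists called higher. In whole kidney, fewer cells of a type and less RNA per cell cannot be told apart, and the part of these shifts in the values below was not tested.

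Of the 10 genes, 7 were called lower on day 21, 1 was called higher and 2 were not called. The day 21 mice lay wholly below the day 0 mice for 8 genes, wholly above for 1 and overlapped for 1, where 57.1% of all genes did not overlap (26.4% of all genes below and 30.7% above). Because the genes were picked with this contrast known, nothing is read from these counts. The median log2 fold change was -0.95 over the 10 genes, whether Pvalb was taken at its fitted value or at the bound given below, and 0.03 over all genes tested.

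**Figure D1:**
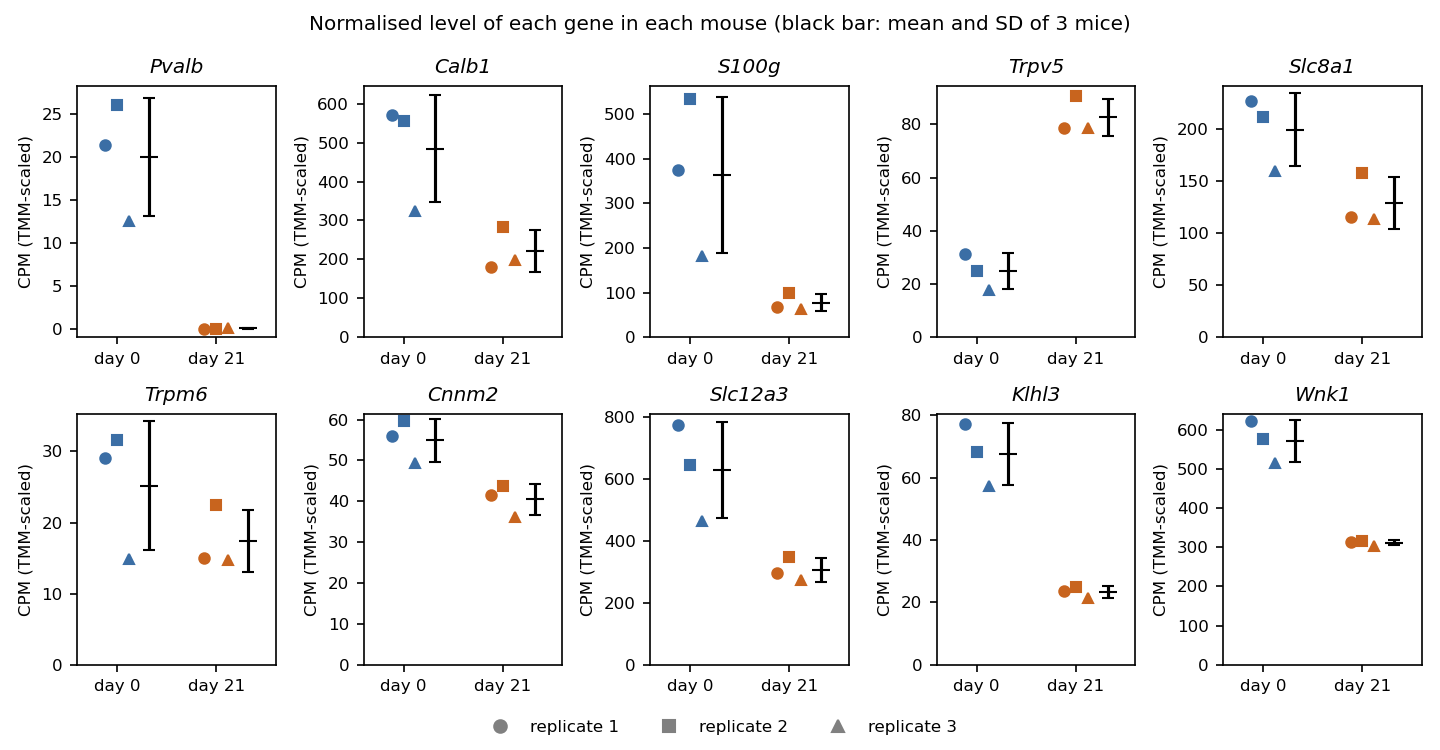
TMM-scaled CPM (vertical axes, from 0 except for Pvalb, where the axis begins just under 0) of the 10 genes in each of the 3 day 0 mice (blue) and 3 day 21 mice (orange), with the marker shape giving the replicate and the black bar the mean and SD. Trpv5 is the only one of the 10 that is higher on day 21, Pvalb falls to between 0 and 0.0613 CPM, and the day 0 triangle is the lowest day 0 point in every panel.

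The starts of the genes whose levels differed in the most unlike ways are shown first, as 250 bases before the RefSeq start on GRCm38.p6, each 5′ to 3′ on the strand of its gene. They are Pvalb, which has 2 RefSeq starts and was nearly lost, Trpv5 and its neighbour Trpv6, which were higher, S100g, which was lower, and Slc12a3, the cotransporter that marks the segment. Capitals mark TATAAA (the TATA box), GCCNNNGGC (the motif of AP-2 factors) and AGGTCA or its reverse complement (the core site of nuclear receptors).
Pvalb, chr15:78206401-78206650, minus strand: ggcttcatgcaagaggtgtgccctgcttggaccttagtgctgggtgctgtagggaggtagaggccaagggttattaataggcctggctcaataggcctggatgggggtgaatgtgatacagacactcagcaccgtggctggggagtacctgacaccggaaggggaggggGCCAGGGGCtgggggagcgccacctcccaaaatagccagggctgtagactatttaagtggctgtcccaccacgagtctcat
Pvalb, chr15:78204238-78204487, minus strand: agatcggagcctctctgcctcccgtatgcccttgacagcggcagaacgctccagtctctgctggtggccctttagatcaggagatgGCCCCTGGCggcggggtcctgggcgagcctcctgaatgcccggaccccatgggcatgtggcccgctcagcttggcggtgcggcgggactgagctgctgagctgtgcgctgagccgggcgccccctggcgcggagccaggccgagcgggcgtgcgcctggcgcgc
Trpv5, chr6:41680724-41680973, minus strand: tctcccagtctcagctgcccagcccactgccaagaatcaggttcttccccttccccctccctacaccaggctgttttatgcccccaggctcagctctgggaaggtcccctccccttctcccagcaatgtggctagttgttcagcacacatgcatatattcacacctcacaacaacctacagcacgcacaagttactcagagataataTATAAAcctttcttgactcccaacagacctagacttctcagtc
Trpv6, chr6:41636406-41636655, minus strand: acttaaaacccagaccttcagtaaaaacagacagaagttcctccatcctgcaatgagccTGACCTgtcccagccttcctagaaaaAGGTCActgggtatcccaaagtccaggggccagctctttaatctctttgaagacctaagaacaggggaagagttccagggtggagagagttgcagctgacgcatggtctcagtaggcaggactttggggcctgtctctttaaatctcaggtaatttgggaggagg
S100g, chrX:162964600-162964849, minus strand: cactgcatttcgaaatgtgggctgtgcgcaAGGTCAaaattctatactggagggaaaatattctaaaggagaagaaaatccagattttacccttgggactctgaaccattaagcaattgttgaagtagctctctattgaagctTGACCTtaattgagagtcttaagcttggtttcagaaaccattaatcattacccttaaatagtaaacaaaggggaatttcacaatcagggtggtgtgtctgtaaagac
Slc12a3, chr8:94328958-94329207, plus strand: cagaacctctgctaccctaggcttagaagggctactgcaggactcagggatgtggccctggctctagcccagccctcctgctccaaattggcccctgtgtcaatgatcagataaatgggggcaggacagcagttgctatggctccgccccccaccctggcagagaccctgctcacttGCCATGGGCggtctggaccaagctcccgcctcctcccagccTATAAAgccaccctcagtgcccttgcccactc

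Of the 10 genes, 9 had at least 1 entry in the RefSeq promoter table, 10 entries in all, from 250 bases before to 50 bases after the start. TATAAA was found on either strand in 3 of the 10 entries and in 13.6% of all 32851 promoters of this length. It began 43 bases before the start of Trpv5 and 32 bases before the start of Slc12a3, and in S100g it lay at the start itself, outside the stretch printed above. GCCNNNGGC was found in 5 of the 10 entries, from 4 genes, and in 16.6% of all promoters. It stood 81 and 164 bases before the 2 starts of Pvalb, 73 bases before that of Slc12a3, 68 before that of Trpm6 and 65 before that of Wnk1. The fixed letters of this motif are all G or C. These 5 entries were 53% to 67.7% G and C, against a median of 52.7% over all promoters. The part of base content in this count was not tested. AGGTCA was in 1 of the 10 entries, S100g, where it occurred in both orientations, and in 16.3% of all promoters. Trpv6 also held it in both orientations, 191 and 165 bases before its start. No entry of the 10 held the direct repeat of that core site with 3 bases between (0.00609% of all promoters) or TCAAGGTCA, the Esrr site that contains AGGTCA (0.423%). These are matches of letters in a short window and are not evidence of binding.

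Trpv5 encodes the channel through which calcium enters the distal tubule cell from the urine. It lies on the minus strand of chromosome 6 at 41652173 to 41680769 (GRCm38). Its level was 31.4, 24.9 and 17.8 CPM in the day 0 mice and 78.8, 90.8 and 78.6 CPM in the day 21 mice. The lowest day 21 mouse was well above the highest day 0 mouse. The means were 24.7 ± 6.78 CPM (SD, n = 3) and 82.7 ± 7.00 CPM (SD, n = 3), a log2 fold change of 1.74 (SE 0.181, 95% interval 1.34 to 2.15). Leaving out each mouse in turn gave 1.54 to 1.92.

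Trpv6, a closely related calcium channel that was not one of the 10, lies 15767 bases from Trpv5 on the same strand of chromosome 6 (41620624 to 41636405). It was measured at 4.31, 3.54 and 2.68 CPM on day 0 and at 13.2, 17.6 and 14.8 CPM on day 21. All day 21 mice were again above all day 0 mice, and Trpv6 was called higher (log2 fold change 2.11, SE 0.224, edgeR adjusted p = 4.28e-05). No stretch of 50 bases in the transcripts of Trpv5 or Trpv6 occurred in any other gene, so that reads of this length from the 2 neighbours could be assigned to one of them. Within a library, the ratio of Trpv5 to Trpv6, both scaled to exon length, was 8.84, 8.52 and 8.08 on day 0 and 7.27, 6.26 and 6.46 on day 21. Trpv5 stayed the more abundant transcript in all 6 mice, and the ratio was lower in each day 21 mouse than in each day 0 mouse.

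Calb1 encodes calbindin-D28k, the calcium-binding protein that carries calcium through the cell, and lies on chromosome 4 at 15881264 to 15908064. It was at 572.2, 556.1 and 325.0 CPM on day 0 and at 181.0, 282.6 and 199.4 CPM on day 21. The groups did not overlap, although the gap between day 0 replicate 3 and day 21 replicate 2 was small beside the spread within day 0. Their log2 fold change was -1.13 (SE 0.228, 95% interval -1.64 to -0.62), and -0.74 under library size alone.

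S100g encodes calbindin-D9k, a smaller calcium-binding protein of the same route, and lies on chromosome X at 162961992 to 162964599. Its levels were 375.1, 532.9 and 183.0 CPM on day 0 and 68.5, 98.8 and 63.8 CPM on day 21. Each day 21 mouse was below each day 0 mouse, and the day 0 mice differed among themselves more than for any other of the 10 genes, with a coefficient of variation of 48.2%. The log2 fold change was -2.24 (SE 0.331, 95% interval -2.98 to -1.50), and without single mice it ran from -2.58 to -1.86. The ratio of S100g to Calb1 within a library, per exon length, was 6.62, 9.67 and 5.69 on day 0 and 3.82, 3.53 and 3.23 on day 21, so that the small calbindin was lower relative to the large one in every day 21 mouse.

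Pvalb encodes parvalbumin, a calcium buffer that in the kidney marks the early distal convoluted tubule, and lies on chromosome 15 at 78191114 to 78206400. Its counts were 214, 317 and 122 in the libraries of day 0 and 0, 0 and 1 in those of day 21. On the CPM scale these were 21.5, 26.1 and 12.6 against 0, 0 and 0.0613. All 3 day 0 mice expressed the gene, and no day 21 mouse reached 3 counts, the limit that a count of 0 allows. Against that floor in each day 21 library, the mean was at least 105-fold lower on day 21. Parvalbumin is also abundant in fast skeletal muscle, and of 4 skeletal muscle markers Myh4 had 0 counts in every library and Ckm had 0 or 1. The summed skeletal muscle level was 0.501 to 0.825 CPM on day 0 and 1.77 to 3.40 CPM on day 21. Of these, Acta1 had 0 to 1 counts on day 0 and 20 to 43 on day 21, and Mylpf 4 to 8 and 5 to 14. Their part in the Pvalb values was not tested.

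Slc8a1 encodes the sodium-calcium exchanger NCX1, which moves calcium out of the cell toward the blood, and lies on chromosome 17 at 81373105 to 81738377. It stood at 227.1, 211.7 and 159.6 CPM on day 0 and at 115.6, 157.9 and 113.4 CPM on day 21. Day 21 replicate 2 came within 2 CPM of day 0 replicate 3, and the groups did not overlap. The log2 fold change was -0.63 (SE 0.168, 95% interval -1.003 to -0.255). The call was lost with scaling by library size alone (-0.23), with upper quartile scaling (-0.54) and without day 0 replicate 1, day 0 replicate 2, day 21 replicate 1 or day 21 replicate 3, which gave -0.58 to -0.54. Transcripts on the other strand cover 1.62% of its exon bases, and whether reads were counted by strand is not given in the sources used here. The exchanger is also the main one of heart muscle, whose 4 markers summed to 1.604 to 2.802 CPM on day 0 and 0.955 to 2.12 CPM on day 21.

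Trpm6 encodes the magnesium entry channel of the distal convoluted tubule and lies on chromosome 19 at 18749983 to 18892511. Its levels were 29.1, 31.7 and 14.8 CPM on day 0 and 15.1, 22.4 and 14.7 CPM on day 21. Day 0 replicates 1 and 2 were above all day 21 mice, but replicate 3 was level with the lowest of them, so the groups overlapped. The log2 fold change of -0.54 (SE 0.269) had a 95% interval from -1.14 to 0.06. It was -0.82 without day 0 replicate 3, where it was called, and -0.33 without day 0 replicate 2, and scaling by library size alone gave -0.14, so that single mice moved the value by over 1.5 times in both directions.

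Cnnm2 encodes a basolateral membrane protein needed for renal magnesium reabsorption and lies on chromosome 19 at 46761596 to 46880192. It was measured at 56.1, 59.6 and 49.3 CPM on day 0 and at 41.6, 43.7 and 36.1 CPM on day 21. Every day 21 mouse was below every day 0 mouse, by a small margin. The log2 fold change was -0.44 (SE 0.122, 95% interval -0.72 to -0.17), which is under the 1.5-fold limit of the call rule, and -0.05 with scaling by library size alone.

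Slc12a3 encodes NCC, the cotransporter that defines the distal convoluted tubule, and lies on chromosome 8 at 94329201 to 94366214. It was at 775.2, 646.8 and 464.6 CPM on day 0 and at 297.7, 349.5 and 274.7 CPM on day 21. The groups did not overlap, and day 0 replicate 3 was again the lowest of its group. The means were 628.9 ± 156.1 CPM and 307.3 ± 38.3 CPM (SD, n = 3 each), a log2 fold change of -1.03 (SE 0.180, 95% interval -1.43 to -0.63), and -0.64 under library size alone.

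Klhl3 encodes the adaptor by which a cullin ubiquitin ligase marks WNK kinases for breakdown, and lies on chromosome 13 at 58000228 to 58113592. Its levels were 77.3, 68.3 and 57.3 CPM on day 0 and 23.5, 25.1 and 21.4 CPM on day 21. The highest day 21 mouse was well below the lowest day 0 mouse, and the day 21 mice lay close together. This was a log2 fold change of -1.53 (SE 0.137, 95% interval -1.84 to -1.23).

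Wnk1 encodes a kinase upstream of NCC that in the distal convoluted tubule is made mostly as a short form without kinase activity, and lies on chromosome 6 at 119923969 to 120038672. It stood at 622.0, 575.2 and 514.8 CPM on day 0 and at 314.6, 316.7 and 303.9 CPM on day 21. The 3 day 21 mice were nearly equal, with a coefficient of variation of 2.2%, and all were below day 0. The change came to -0.87 on the log2 scale (SE 0.111, 95% interval -1.12 to -0.62), and to -0.48, with the call lost, under library size alone. A count per gene sums the short and the full-length forms, and these were not separated here.

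**Figure D2:**
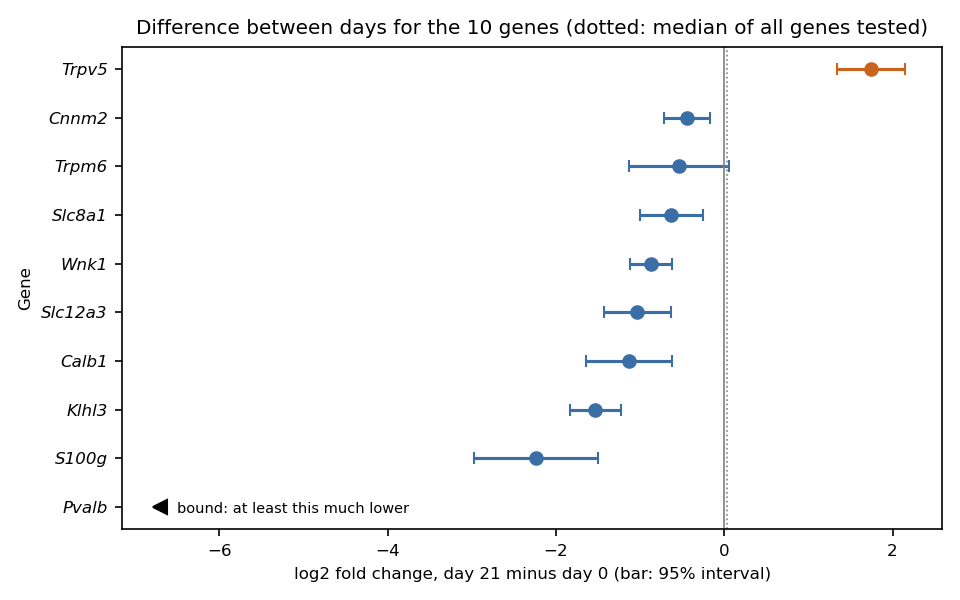
Log2 fold change of day 21 over day 0 (horizontal axis) with its 95% interval for 9 of the 10 genes, and for Pvalb the bound set by 3 counts per day 21 library (black triangle). Trpv5 lies at 1.74, the other genes with an interval lie between -2.24 and -0.44, and only the interval of Trpm6 reaches past 0, to 0.06.

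The day 0 mice were not alike. Replicate 3 had the lowest day 0 level in 10 of 10 genes, where 33.4% of all genes tested had their lowest day 0 level in that mouse. Its level was 40.3% of the mean of replicates 1 and 2 for S100g and 86% for Wnk1, the extremes of the 10. In the same mouse the summed podocyte markers were 331.6 CPM against 478.4 and 532.7, the intercalated cell markers 209.5 CPM against 345.5 and 282.5, the principal cell markers 632.9 CPM against 517.2 and 495.4, and the fat markers 13.8 CPM against 0.401 and 1.73. Their part in the lower levels was not tested. On day 21, replicate 2 was the highest in 9 of 10 genes, against 34.7% of all genes. The median coefficient of variation of the 10 genes was 26.1% on day 0 and 16% on day 21, and that of all genes 16.4% and 10.4%. Of the 10 genes, 8 were called lower without day 0 replicate 3, where 15.3% of all genes were. Without day 21 replicate 2, 7 were, where 13.6% of all genes were. With any other mouse left out 6 were, where 14% to 15.7% of all genes were called lower.

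Levels can be compared between genes only per exon length, given here as TPM, counts per exon base scaled to the same sum in each library, with no TMM factor. S100g had the highest level on both days, at 1629 ± 726 TPM on day 0 and 504 ± 130 TPM on day 21 (SD, n = 3). Calb1 followed at 217 TPM, Slc12a3 at 123 TPM and Wnk1 at 54.4 TPM on day 0, and Calb1 and Slc12a3 overlapped between mice, as did Wnk1 and Pvalb at 41.6 TPM. Cnnm2, Slc8a1, Klhl3 and Trpv5 came next at 23.1, 23.1, 20.1 and 16.6 TPM, each overlapping its neighbour in that order. Trpm6 was the lowest at 7.06 TPM and lay below Trpv5 in every mouse. On day 21 Trpv5 had moved from rank 9 to rank 4 at 80.0 ± 7.70 TPM, a level that overlapped that of Slc12a3 at 86.7 ± 11.5 TPM. Pvalb had moved from rank 5 to rank 10. With the longest transcript as the length in place of all exons, Slc12a3 ranked second on both days, at 265.3 and 179.7 TPM, and Trpv5 ranked 5 on day 21 at 64.3 TPM.

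**Figure D3:**
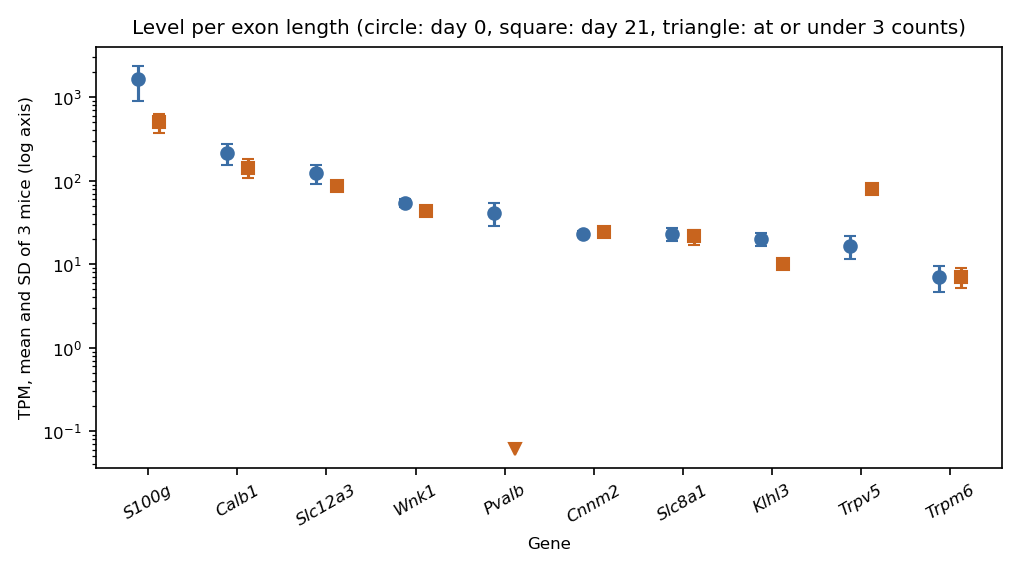
Mean TPM with SD of 3 mice (log axis) for the 10 genes in the order of their day 0 level, on day 0 (blue circles) and day 21 (orange squares). S100g is highest on both days, Trpv5 goes from 16.6 to 80.0 TPM, and the triangle for Pvalb on day 21 stands for counts of 0, 0 and 1.

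Ratios within a library do not depend on how libraries are scaled. Their size depends on the gene lengths used, which act alike in all 6 libraries and do not alter the order of the mice. With the longest transcript as the length, the day 21 means were 64.3 TPM for Trpv5, 132.1 TPM for Calb1 and 179.7 TPM for Slc12a3. The ratio of Trpv5 to Slc12a3 per exon length was 0.139, 0.132 and 0.132 in the day 0 mice and 0.907, 0.891 and 0.981 in the day 21 mice. It was alike in the 3 day 0 mice although both genes varied among them. Calb1 to Slc12a3 was 1.69, 1.97 and 1.61 on day 0 and 1.40, 1.86 and 1.67 on day 21, and overlapped. The ratio of Wnk1 to Slc12a3 overlapped as well, with means of 0.455 and 0.498. Klhl3 to Slc12a3 was lower in each day 21 mouse, at 0.166 ± 0.0187 on day 0 and 0.116 ± 0.00592 on day 21 (SD, n = 3). Relative to Slc12a3, the other transport genes split: S100g and Pvalb were lower in each day 21 mouse, and Slc8a1, Trpm6 and Cnnm2 were higher. For Trpm6 the ratio was 0.0540, 0.0705 and 0.0460 on day 0 and 0.0728, 0.0924 and 0.0771 on day 21. Slc12a3 was itself higher relative to Slc12a1, the cotransporter of the thick ascending limb, at 0.306, 0.281 and 0.194 on day 0 and 0.444, 0.421 and 0.343 on day 21. Slc12a1 fell the most of the 5 thick ascending limb markers (log2 fold change -1.65, against -1.03 for Slc12a3). Ptger3, named after its values were seen, was at -1.44. Cldn10 (-0.92) and Umod (-0.45) fell less than Slc12a3, and Cldn16 rose (0.82). The direction thus depends on the marker set beside Slc12a3. All the within-library ratios come from the contrast that chose the genes and carry no test. With 3 mice a group an exact permutation test cannot give a p below 0.1.

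**Figure D4:**
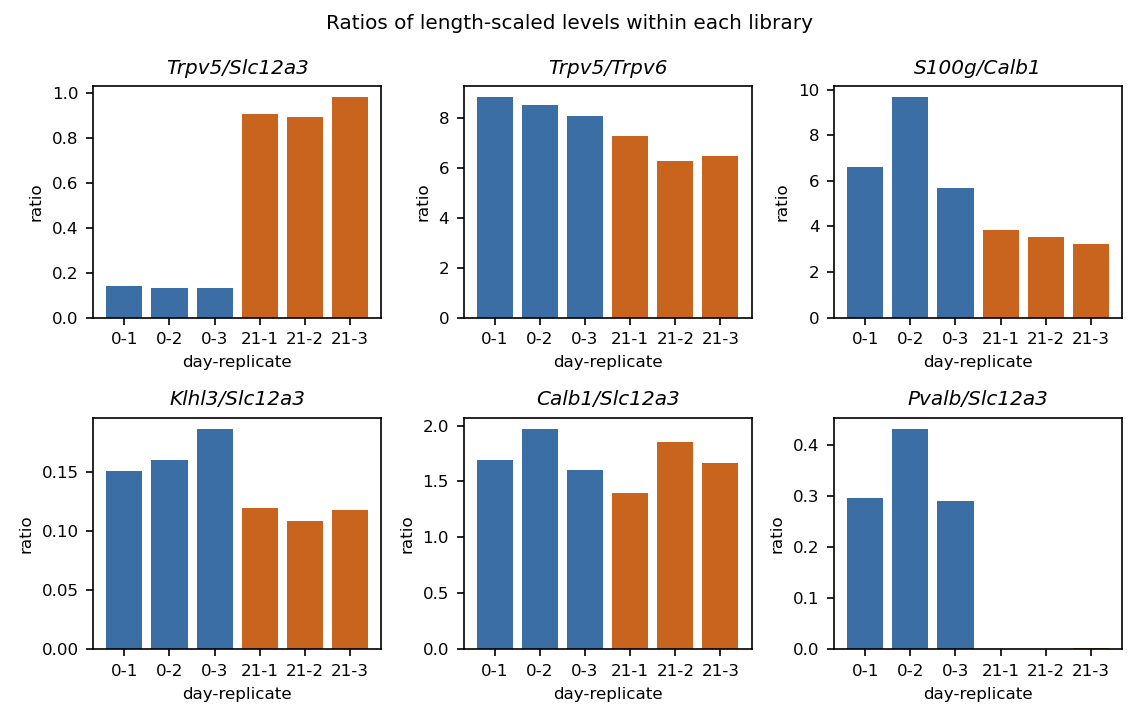
Ratios of length-scaled levels (vertical axes, from 0) within each of the 6 libraries, with all exons as the length. Day 0 is in blue and day 21 in orange, and the axis labels give day and replicate. Trpv5 to Slc12a3 goes from 0.132 to 0.139 on day 0 up to 0.891 to 0.981 on day 21, while Calb1 to Slc12a3 overlaps between the days.

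The gene whose profile over the 6 mice was nearest to that of Slc12a3 was Asl, an enzyme of arginine synthesis, by the root mean square difference of centred log2 CPM (0.08) among 10591 genes with a mean of at least 10 CPM. It was followed by Gm11615 (0.082), the amino acid transporter gene Slc7a7 (0.09), the sterol reductase gene Tm7sf2 (0.099) and the cystine transporter gene Slc7a9 (0.106). Gm11615 covers 7.38% of the exon bases of Wnk4 on the other strand, and whether reads were counted by strand is not given. Among the 10 genes, Calb1 was the nearest at rank 25 (0.158), then Wnk1 at rank 41 (0.177) and Slc8a1 at rank 104 (0.211). Trpv5 and Pvalb were at ranks 10143 and 10577. The difference between the days enters every one of these profiles.

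The other genes of calcium and magnesium transport were taken from a list of 20, of which 15 had enough counts. Of these, 1 was called higher (Trpv6) and 5 lower, 40% in all, against 35.1% of all genes (19.6% higher and 15.5% lower). The median log2 fold change was -0.23 against 0.03 over all genes. This list and those that follow were chosen with earlier results of these data known, so nothing is read from the shares called. The 5 were Cnnm1, Cnnm4, Fxyd2, Magt1 and Mrs2, the last pair being named after their values were seen. Cnnm4, a magnesium transporter related to Cnnm2, was at 12.5, 13.9 and 18.8 CPM on day 0 and 8.13, 7.70 and 6.98 CPM on day 21, and fell by 0.98 on the log2 scale (SE 0.195, edgeR adjusted p = 0.00223). Cnnm1 fell by 1.27 (SE 0.180, edgeR adjusted p = 2.83e-04). Fxyd2, the gamma subunit of the sodium pump, which is altered in an inherited magnesium wasting, fell by 0.99 (SE 0.139, edgeR adjusted p = 2.48e-04). The library size alone scaling left 3 of the 5 called.

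The plasma membrane calcium pumps, the second exit route beside NCX1, were not called. Atp2b1 was at 177.8, 70.3 and 105.2 CPM on day 0 and at 88.0, 92.8 and 93.8 CPM on day 21, so that the day 0 mice spanned the day 21 mice. Its log2 fold change was -0.36 (95% interval -0.95 to 0.22, edgeR adjusted p = 0.289) and became 0.045 without day 0 replicate 1, but was called lower at -0.63 without day 0 replicate 2 (edgeR adjusted p = 0.0321). Atp2b4, another of these pumps, had a log2 fold change of -0.12 (95% interval -0.46 to 0.22, edgeR adjusted p = 0.543). This turned to 0.26 with library size alone. Trpm7, the partner channel of TRPM6, was at -0.39 (95% interval -0.72 to -0.06, edgeR adjusted p = 0.0534). Kcna1, the potassium channel that sets the voltage for magnesium entry, was counted 1, 5 and 5 times in the day 0 libraries and 2, 0 and 1 times in those of day 21, too few to enter the fit, so that it was not tested.

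Of 15 genes for hormones and signals that act on this transport, all tested, 2 were called higher and 9 lower, with a median of -0.71. That was 73.3% of the list, where 35.1% of all genes were called. Earlier results of these data were known when the list was chosen, so nothing is read from this share. Kl, the co-receptor klotho, was at 961.4, 1081 and 876.9 CPM on day 0 and at 208.4, 234.7 and 199.8 CPM on day 21, and fell by 2.18 (SE 0.128, edgeR adjusted p = 1.72e-06). Egf, a growth factor made in the distal tubule that acts on TRPM6, went from 1667, 2269 and 1722 CPM to 97.5, 113.8 and 89.8 CPM, and fell by 4.23 (SE 0.172, edgeR adjusted p = 3.17e-07). For both genes the groups were far apart beside the spread within them. Calcr, the calcitonin receptor, named after its values were seen, went the other way on 2 to 76 counts a library. It was at 1.91, 1.32 and 0.206 CPM on day 0 and at 2.40, 4.53 and 2.63 CPM on day 21. Its log2 fold change of 1.465 was not called (edgeR adjusted p = 0.0526). Pth1r, Casr and Vdr were called lower. Pth1r, the parathyroid hormone receptor, fell by 1.02 (edgeR adjusted p = 3.90e-04). Casr, the calcium-sensing receptor, fell by 1.27 (edgeR adjusted p = 2.60e-04), and Vdr, the vitamin D receptor, fell by 0.86 (edgeR adjusted p = 1.32e-04), a call lost under library size alone (-0.47). Proximal tubule and thick ascending limb cells also express Pth1r, Casr and Vdr, and the sums of their markers given above were lower on day 21. Their part in these falls was not tested.

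Of the vitamin D enzymes, the one that makes the hormone was called higher. Cyp27b1, which makes the active hormone, was at 1.91, 4.53 and 6.39 CPM on day 0 and at 23.6, 18.7 and 18.4 CPM on day 21. All day 21 mice were above all day 0 mice, and the gene rose by 2.24 on the log2 scale (SE 0.32, edgeR adjusted p = 2.93e-04). Cyp24a1, which degrades the hormone, was at 197.8, 48.4 and 114.9 CPM on day 0 and at 209.0, 156.5 and 221.5 CPM on day 21. Its groups overlapped through day 0 replicate 1, and its log2 fold change of 0.70 was not called (95% interval -0.14 to 1.55, edgeR adjusted p = 0.157). It was 1.25 without that mouse (edgeR adjusted p = 0.00594) and 0.32 without day 0 replicate 2 (edgeR adjusted p = 0.303). It was also called higher with scaling by library size alone (1.08, edgeR adjusted p = 0.0359), with no filter and with a replicate block.

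In the list of 22 genes that control NCC or share its membrane, all tested, 0 were called higher and 7 lower in edgeR's test. The median was -0.33. The share called was 31.8%, against 35.1% of all genes (19.6% higher and 15.5% lower). At an unadjusted p under 0.05 in edgeR's test, 1 gene was higher and 11 were lower. DESeq2 and limma-voom also called 0 higher, and scaling by library size alone called 2. Wnk4, the kinase that acts on NCC, was at 181.3, 188.3 and 128.2 CPM on day 0 and at 75.4, 104.6 and 80.4 CPM on day 21, and fell by 0.94 (SE 0.172, edgeR adjusted p = 0.00146), a call lost under library size alone (-0.54). Its ratio to Slc12a3 within a library overlapped between the days, with means of 0.716 and 0.755. Stk39, which encodes SPAK, the kinase between the WNKs and NCC, was at 31.1, 30.7 and 32.0 CPM on day 0 and at 39.0, 45.5 and 43.0 CPM on day 21. These mice did not overlap, but the log2 fold change of 0.44 (edgeR adjusted p = 0.0089) was under 1.5-fold, and was 0.84 and called under library size alone. Oxsr1, its sister kinase, was at -0.22 (95% interval -0.49 to 0.05, edgeR adjusted p = 0.162).

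Cul3, the cullin that works with KLHL3, had a log2 fold change of -0.45 (edgeR adjusted p = 0.0119), also under the limit. Sgk1, the aldosterone-induced kinase, fell by 1.35 (edgeR adjusted p = 4.47e-05), while its target ligase gene Nedd4l was at -0.35 (edgeR adjusted p = 0.015) and the mineralocorticoid receptor gene Nr3c2 at -0.10 (edgeR adjusted p = 0.689), neither of them called. The largest fall of the list was that of Ppp1r1a, an inhibitor of protein phosphatase 1, by 1.62 (SE 0.170, edgeR adjusted p = 3.87e-05). Kcnj10, the basolateral potassium channel of the segment, was at 147.3, 134.0 and 81.3 CPM on day 0 and at 80.2, 98.0 and 71.1 CPM on day 21. Its log2 fold change of -0.54 was not called (edgeR adjusted p = 0.054), but was called at -0.78 without day 0 replicate 3 (edgeR adjusted p = 0.00197) and at -0.68 without day 21 replicate 2 (edgeR adjusted p = 0.0442).

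Claudins form the paracellular path, which carries calcium and magnesium between cells in the thick ascending limb. Of 9 renal claudins, all tested, 6 were called higher and 2 lower, with a median of 0.98. That was 88.9% of the list, where 35.1% of all genes were called. Nothing is read from this share either, since the list was chosen with earlier results of these data known. Cldn16, which with Cldn19 forms the cation path of the thick ascending limb, was at 9.73, 9.48 and 6.70 CPM on day 0 and at 12.8, 16.8 and 16.2 CPM on day 21. Cldn16 rose by 0.82 (SE 0.197, edgeR adjusted p = 0.00659) and Cldn19 by 0.98 (SE 0.140, edgeR adjusted p = 2.99e-04). In the same kidneys the summed markers of the thick ascending limb, a list that also holds Cldn16 and Cldn10, were lower. Most of that sum was Umod, named after its values were seen. Umod was at 3989, 5421 and 4601 CPM on day 0 and at 3173, 3523 and 3544 CPM on day 21. Its log2 fold change of -0.45 was under the 1.5-fold limit and not called. Cldn3 rose the most, by 2.06 (SE 0.190, edgeR adjusted p = 1.78e-05). Cldn10 fell by 0.92 (SE 0.146, edgeR adjusted p = 5.67e-04), or by less than 1.5-fold under library size alone (-0.53). Cldn14, named after its values were seen, rested on 5 to 22 counts a library, and its call (log2 fold change 1.22, edgeR adjusted p = 0.0416) was lost when any 1 mouse was left out, with adjusted p from 0.0761 to 0.15.

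Among 7 transcription factors of the distal nephron, all tested, 1 was called higher and 2 lower, with a median of -0.24. The share called was 42.9%, against 35.1% of all genes. Tfap2a, of the AP-2 family, was at 5.71, 4.04 and 5.05 CPM on day 0 and at 8.84, 12.7 and 8.09 CPM on day 21, and rose by 1.00 (SE 0.244, edgeR adjusted p = 0.00709). Tfap2b, the AP-2 member needed for the distal convoluted tubule, was at 0.38 (95% interval 0.10 to 0.66, edgeR adjusted p = 0.0306), under 1.5-fold, and at 0.77 and called under library size alone. Sall3 was at -0.24 (95% interval -0.86 to 0.38, edgeR adjusted p = 0.51). Esrrb, an orphan nuclear receptor, was at 63.3, 85.4 and 67.8 CPM on day 0 and at 16.6, 13.8 and 19.4 CPM on day 21, and fell by 2.12 (SE 0.163, edgeR adjusted p = 6.38e-06).

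**Figure D5:**
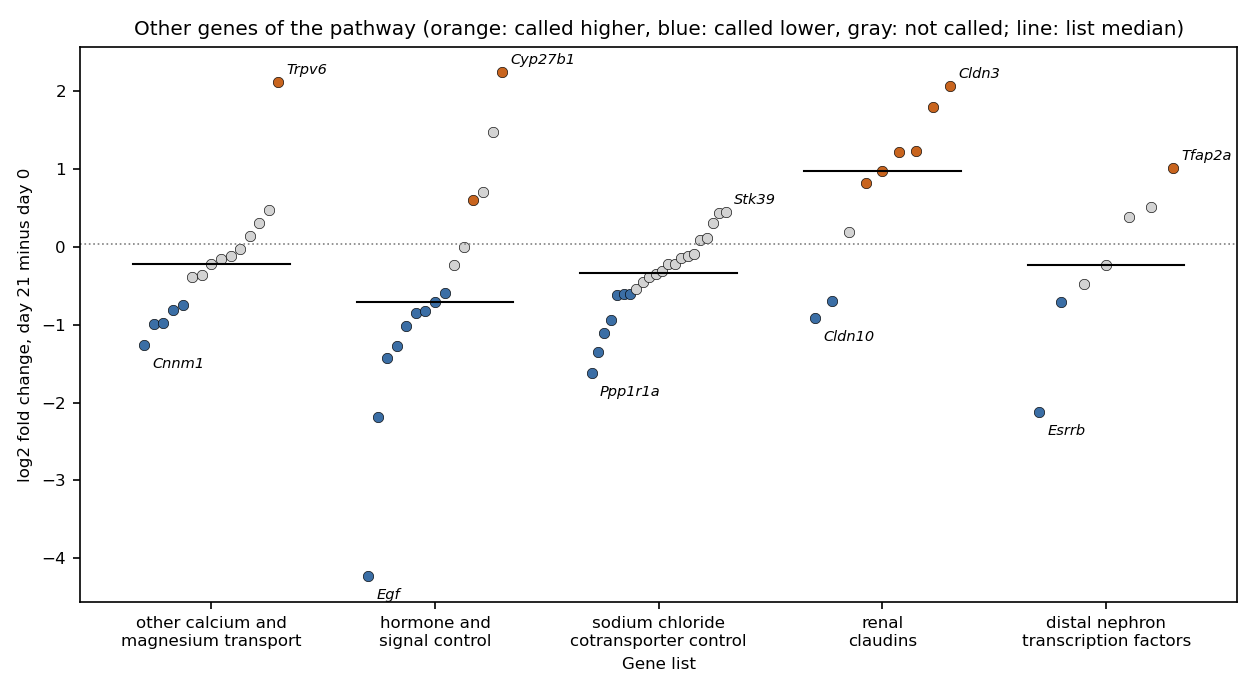
Log2 fold change of day 21 over day 0 (vertical axis) for each tested gene of 5 lists, with genes called higher in orange, called lower in blue and not called in gray, the list median as a line and the median of all genes (0.03) dotted. The claudins have a median of 0.98 and the other 4 lists medians between -0.71 and -0.23, and Egf at -4.23 is the lowest point.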

How the data were processed

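Kidney RNA of 6 mice was sequenced as paired ends with a TruSeq kit. The authors deposited one table of raw counts per gene. TopHat and the build mm10 are named in the submitters' processing notes; the counting program, its strand setting and its filters are not given in the sources used here. Columns were matched to samples by the bracketed names in the titles, and 0 columns of values stayed unused. All 55450 gene IDs matched GENCODE M21 (GRCm38). Among the genes named here, transcripts on the other strand cover 32.4% of the exon bases of Mrs2, 14.6% of Tfap2a, 9.82% of Egf and 7.38% of Wnk4.

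Genes were filtered with filterByExpr (minimum count 10, minimum total 15) and fitted with edgeR 4.0.16 in R 4.3.3 (TMM scaling, quasi-likelihood test, group as the one term, Benjamini-Hochberg over 16592 genes). The study's thresholds were used for calls (adjusted p 0.05, fold change 1.5). Library totals of 10963849 to 14333311 counts put the floor of 3 counts at 0.179 to 0.309 CPM, which covers counting error only. Alternatives used DESeq2 1.42.0, limma 3.58.1, other scalings and filters, a replicate block and single mice left out. The scripts were tested on simulated data. No pair of libraries of a group agreed within sampling noise (chi-square per gene 6.78 to 23.6). Promoters and motifs came from the RefSeq table of GRCm38.p6.

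The 10 genes and all lists were chosen with earlier results of these data known. The named genes were the 10, a set named from each list whether called or not, in each list the largest called rise and fall with a mean of at least 50 counts, and the 5 profiles nearest to Slc12a3. Names given after values were seen are marked. Some genes of the lists are counted in them but not reported here by name.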

Additional observations from a re-analysis of the deposited data

How the results depend on the processing

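None of the 10 genes changed direction in 150 alternative values, 15 for each gene. In each alternative 5 to 8 of them were called lower and 1 higher. Over the same settings 7.6% to 16.6% of all genes were called lower and 11.6% to 36.1% higher. The 10 genes were picked with this contrast known, so nothing is read from these counts. Of 704 alternative values for 47 single genes of the lists, 649 kept their direction and their side of the threshold, 37 were no longer past it, 10 were newly past it and 8 reversed. Scaling by library size alone, which moved the median of all genes from 0.03 to 0.42, gave the reversed values of Atp2b1 (0.021), Atp2b4 (0.26), Oxsr1 (0.16), Nedd4l (0.039), Nr3c2 (0.30) and Sall3 (0.15). Leaving out day 0 replicate 1 turned Atp2b1 to 0.045 and Nr3c2 to 0.023, where leaving out other mice gave down to -0.63 and -0.22. In the fit of the report none of these genes was called. The same scaling called 5985 of all genes higher and 1338 lower in place of 3249 and 2572, and upper quartile scaling 3692 and 2168.

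Under library size alone the calls, higher and lower, were 2 and 3 for the other calcium and magnesium transport genes, 4 and 5 for the hormone genes, 2 and 3 for the cotransporter control genes, 3 and 1 for the transcription factors, and 0 claudins were lower. Upper quartile scaling gave 4 lower cotransporter control genes and 2 higher transcription factors. RLE scaling gave 1 hormone gene higher, and the fit with no filter gave 4. With stricter limits (adjusted p 0.01, fold change 2), the lower calls were 1, 5, 3, 0 and 1 in the 5 lists in the order of the report, and 3 claudins and 1 hormone gene were higher. With single mice left out, the hormone genes called higher ran from 1 (without day 0 replicate 3 or day 21 replicate 2) to 3 (without day 0 replicate 1) and the others stayed within 1.5 times. The cause of these moves was not tested.

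The replicate numbers were not found to pair the mice. Same-numbered mice deviated together with correlations of -0.02, 0.17 and 0.09, and not every mouse correlated best with its own number. With the replicate number as a block, 3235 genes were called higher and 2523 lower, and 4 hormone genes were called higher in place of 2. Cldn14 rested on 5 to 22 counts a library, and Kcna1, on 0 to 5, was not tested.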
